A study of Mus musculus with 12 samples.

Results

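The genes of the mitochondrial genome were followed in liver RNA of a mouse model of nonalcoholic steatohepatitis (NASH), in which fat storage in the liver is joined by inflammation and scarring. They are the 37 genes that the deposited tables place on chromosome MT, of 41325 genes listed, and comprise 13 protein-coding genes, 2 rRNA genes and 22 tRNA genes. The 12 libraries came from livers of wild-type C57BL/6J mice in 3 groups of 4. In the CDDO-Me group, mice made to develop NASH with the diet CDAHFD, a choline-deficient, L-amino acid-defined, high-fat diet, were dosed by mouth with CDDO-Me (bardoxolone methyl, a synthetic triterpenoid that activates the transcription factor NRF2) at 10 mg/kg for 8 weeks. In the NASH vehicle group the same diet was combined with vehicle, and in the Control group mice without NASH received vehicle. All 3 groups therefore share strain and genotype, and the disease is a dietary model without a genetic lesion. Libraries were prepared from polyadenylated RNA bound to oligo dT beads. Each held 28161057 to 33852338 reads on genes, and 16 of the 37 mitochondrial genes had enough reads to be tested. Nothing in the labels beyond the replicate number says how the samples of a group were separated, so p-values measure the spread between these samples.

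The mitochondrial genome is a small circle, transcribed from both strands as long precursor RNAs that are cut apart, mostly at the tRNAs that lie between the other genes. Its mRNAs encode core subunits of complexes I, III and IV of the respiratory chain and of ATP synthase (complex V), and its rRNAs and tRNAs serve to translate them inside the organelle. All other subunits, the RNA polymerase POLRMT and its partners TFAM and TFB2M are made in the cytosol and imported, so that the liver's oxidative capacity draws on both genomes. A short poly(A) tail is added to most of the mRNAs inside mitochondria, and in some of them it completes the stop codon.

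That last feature can be read in the gene ends. Of the 13 annotated coding regions, 8 end in TAA, 2 in TAG and 3 in a lone T. Such a T only becomes a stop codon once the tail follows it. The TAG of mt-Nd1 and of mt-Nd2 shares its last 2 bases with the tRNA genes mt-Ti and mt-Tw. Which RNA keeps these bases after cutting was not examined. The 3 annotated with a lone T are mt-Co3 (subunit 3 of cytochrome c oxidase, complex IV), mt-Nd4 (a subunit of complex I) and mt-Cytb (cytochrome b of complex III). Their last 30 bases, at chrM:9361-9390, chrM:11515-11544 and chrM:15259-15288 on the + strand of GRCm38, are shown 5′ to 3′ from the GENCODE transcripts, with the unfinished stop codon in capitals.
mt-Co3: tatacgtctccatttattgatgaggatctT
mt-Nd4: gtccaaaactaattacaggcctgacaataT
mt-Cytb: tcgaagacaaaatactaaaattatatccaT

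The genes are packed so closely that some share bases, which bears on what a read count of one of them holds. mt-Atp8 and mt-Atp6, subunits of the membrane part of ATP synthase, share 43 bases in different reading frames. mt-Nd4l and mt-Nd4, both of complex I, share 7 bases. mt-Nd5 and mt-Nd6, also of complex I, share 14 bases on opposite strands. Shorter overlaps, such as the 1 base shared by mt-Atp6 and mt-Co3 and those with tRNA genes, are not shown. The ends of mt-Atp8, mt-Nd4l and mt-Nd5, at chrM:7897-7969, chrM:10144-10173 and chrM:13536-13565 on the + strand, are shown from the same source with the shared bases in capitals.
mt-Atp8: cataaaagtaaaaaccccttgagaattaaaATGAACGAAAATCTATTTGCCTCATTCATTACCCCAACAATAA
mt-Nd4l: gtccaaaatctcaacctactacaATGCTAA
mt-Nd5: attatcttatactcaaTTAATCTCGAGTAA

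Many reads of these short, overlapping genes ran past the gene they were assigned to. The deposited tables give, for each gene, the reads that were not contained in its single exon. They made up 36.9% ± 0.8 of the reads of mt-Atp8 in CDDO-Me livers, 35.4% ± 1.2 in NASH vehicle livers and 36.9% ± 4.3 in Control livers (SD, n = 4 each). For mt-Nd4l the shares were 35.6% ± 0.8, 35.2% ± 0.6 and 35.5% ± 0.5 in the same 3 groups. For mt-Nd6 they were 27.0% ± 0.6 in CDDO-Me livers, 28.1% ± 1.0 in NASH vehicle livers and 28.03% ± 2.62 in Control livers. mt-Atp6 followed with 8.03% to 11.3% over the 12 libraries, and in each of the remaining 9 mRNAs and 2 rRNAs at most 8.07% of the reads lay partly outside the gene. Levels of mt-Atp8, mt-Nd4l and mt-Nd6 are therefore less certain than those of the other mRNAs, and since the counting is not stated to use strand, reads of mt-Nd6 cannot be told apart from reads of the other strand.

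The share of liver RNA that came from the mitochondrial genome did not separate the groups. Mitochondrial genes took 4.86%, 5.07%, 6.85% and 5.72% of the gene reads in the CDDO-Me libraries, 5.53%, 6.87%, 4.29% and 5.35% in the NASH vehicle libraries, and 10.2%, 4.01%, 3.65% and 5.55% in the Control libraries. The first Control library was the highest of the 12 and the third Control library the lowest, so that the Control group spanned both other groups. The means were 5.62% ± 0.89 in CDDO-Me livers, 5.51% ± 1.06 in NASH vehicle livers and 5.86% ± 3.02 in Control livers (SD, n = 4 each). The Control mean was 4.40% without its first library. Nearly all of these reads lay in the 13 mRNAs. The 2 rRNAs, which carry at most short tails and were sequenced here after oligo dT selection, took 0.157% ± 0.026, 0.155% ± 0.049 and 0.194% ± 0.067 of the gene reads in CDDO-Me, NASH vehicle and Control livers.

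**Figure D1:**
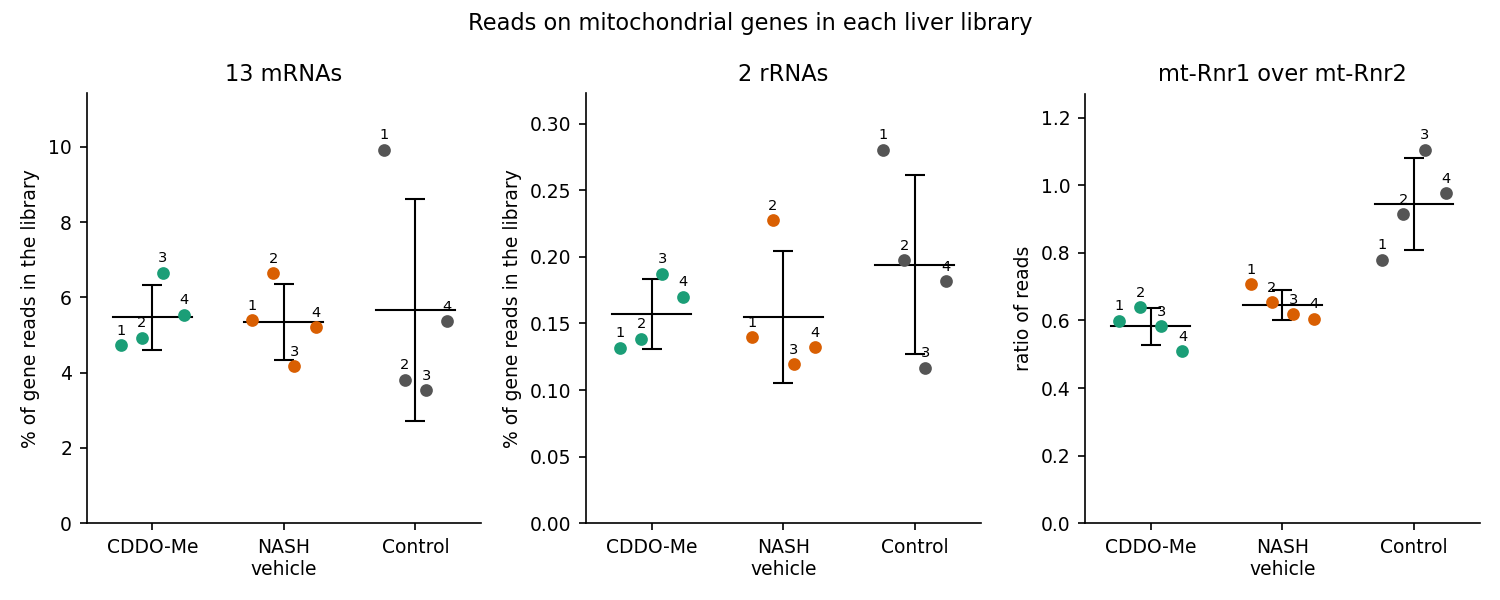
Share of each library's gene reads on the 13 mitochondrial mRNAs and the 2 mitochondrial rRNAs (% of gene reads), and the ratio of mt-Rnr1 to mt-Rnr2 reads. Each point is 1 liver library, numbered by replicate, with the mean and SD of each group of 4 as lines. The shares overlap between groups, with Control 1 on top, whereas the rRNA ratio is 0.707 or lower in the 8 libraries of CDDO-Me and NASH vehicle and 0.78 or higher in Control.

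Per length, the mRNAs kept nearly the same order of abundance in the 3 groups. In TPM (reads per gene length, scaled to a fixed total per library), mt-Co1, the catalytic subunit of complex IV, ranked 1 in every group with 28829 ± 3706 TPM in CDDO-Me livers, 29511 ± 4487 in NASH vehicle livers and 24055 ± 12591 in Control livers (SD, n = 4 each). mt-Co2, which carries the copper centre that takes electrons from cytochrome c, ranked 2 and mt-Atp6, the proton channel subunit of ATP synthase, ranked 3 in each group. mt-Co3 and mt-Cytb exchanged ranks 4 and 5: mt-Cytb ranked 5 in CDDO-Me livers and 4 in NASH vehicle and Control livers, with 10690 ± 1455, 12426 ± 2186 and 12877 ± 6832 TPM. These neighbours differ by less than their spread. At the low end were mt-Atp8, mt-Nd3, mt-Nd4l and mt-Nd6, all between 2427 and 3192 TPM on group average. mt-Rnr1, the small-subunit rRNA, had 1503 ± 176 TPM in CDDO-Me livers, 1651 ± 492 in NASH vehicle livers and 2166 ± 525 in Control livers, and mt-Rnr2, the large-subunit rRNA, had 1554 ± 282, 1515 ± 428 and 1426 ± 543 TPM in the same groups.

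The mRNAs moved together from library to library. In CPM (read counts scaled to library size) under scaling by the trimmed mean of M values (TMM, which sets library sizes on the assumption that most genes do not differ), 1 library was the highest of its group for all 13 mRNAs in each group: the third of CDDO-Me, the second of NASH vehicle and the first of Control. The lowest was the first CDDO-Me library and the third NASH vehicle library for all 13 mRNAs, whereas in Control the third library was lowest for 11 and the second for 2. The median coefficient of variation over the 13 mRNAs was 23.6% in CDDO-Me livers, 23.2% in NASH vehicle livers and 56.5% in Control livers. Within CDDO-Me livers the highest library exceeded the lowest 1.58- to 1.81-fold, within NASH vehicle livers 1.504- to 1.89-fold and within Control livers 2.46- to 4.14-fold, depending on the mRNA. With its first library included, the Control group was thus the most variable in mitochondrial RNA. For mt-Co1 that library had 40786 CPM and the other Control libraries had 16317, 12279 and 20302 CPM. The fit takes 1 spread per gene over all 3 groups, so that of Control enters every comparison, CDDO-Me against NASH vehicle included. For mt-Nd2 the SE was 0.334 in that comparison and 0.336 in NASH vehicle against Control.

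**Figure D2:**
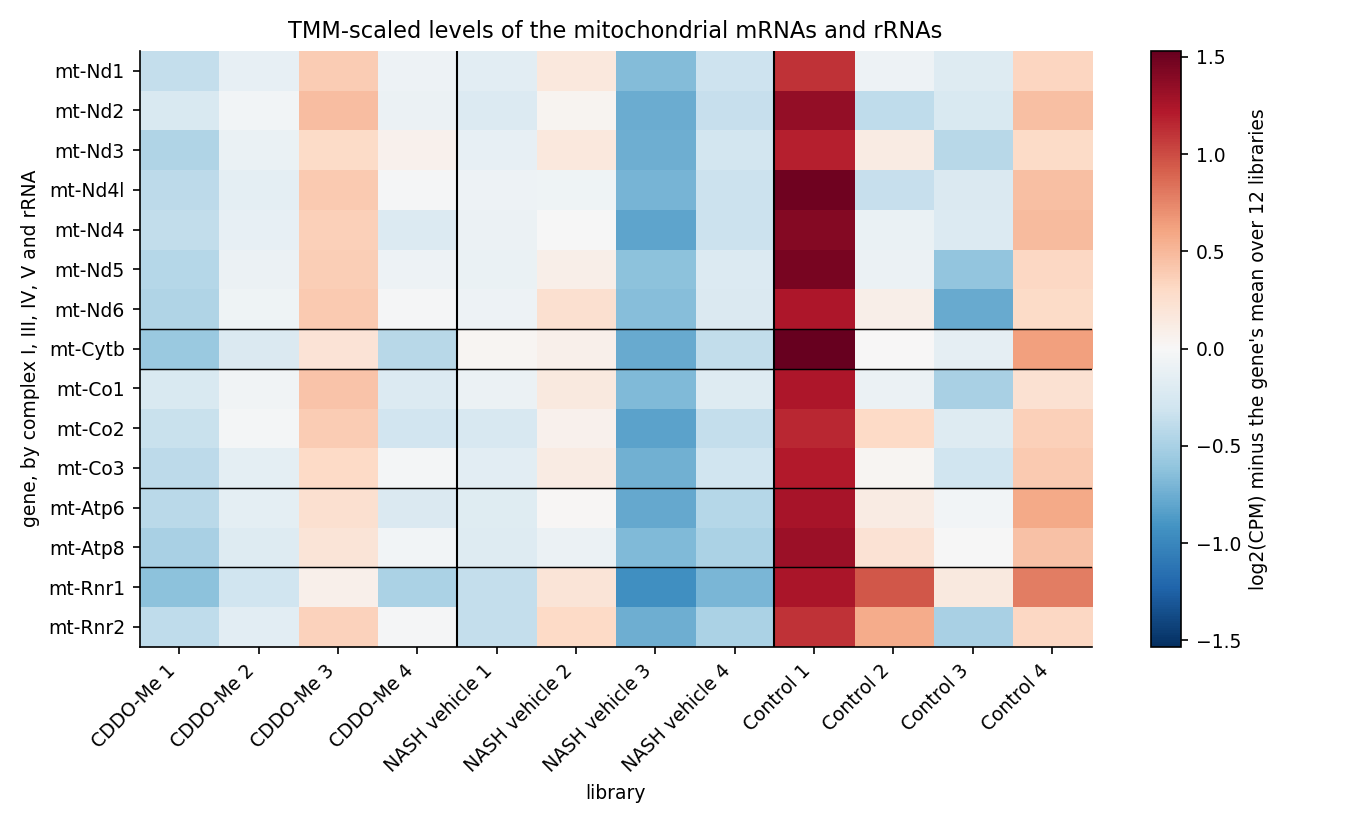
TMM-scaled levels of the 13 mRNAs and 2 rRNAs in the 12 libraries, as log2(CPM) minus the gene's mean over all libraries, with the libraries of CDDO-Me, NASH vehicle and Control from left to right. Colours differ more between columns than within them, and Control 1 is high for all 13 mRNAs. mt-Rnr1 is the row in which all 4 Control libraries are above the gene's mean.

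CDDO-Me was first compared with vehicle in NASH livers, which asks what the drug did on the diet. No mitochondrial gene passed the test: 0 of 16 were called higher and 0 lower, where 9.39% of all 16456 genes tested were called higher and 7.24% lower, 16.6% in either direction (edgeR quasi-likelihood test, Benjamini-Hochberg adjusted p below 0.05), and 0 of the 16 had an unadjusted p below 0.05, where 30.6% of all genes had one. DESeq2 called 0 as well. In 0 of the 16 genes were the 4 CDDO-Me and 4 NASH vehicle libraries free of overlap, against 21.6% of all genes. The 13 mRNAs had fitted log2 fold changes between 0.00 and 0.34, their median being 0.20, beside -0.01 over all genes tested. That median was 0.04 with library totals as scaling and -0.02 on the log2(TPM + 1) scale, where the medians of all genes were -0.16 and -0.16. Of all calls, 36.8% were in the higher direction with library totals and 24.6% with TPM, against 56.5% with TMM.

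Single genes show how wide the limits of this comparison are. mt-Nd2, a complex I subunit in the membrane arm, had 3045, 3488, 4972 and 3382 CPM in CDDO-Me libraries and 3099, 3693, 2125 and 2807 CPM in NASH vehicle libraries. The groups overlap, with the third CDDO-Me library high and the third NASH vehicle library low. Its log2 fold change was 0.34 ± 0.33 (SE), with a 95% interval of -0.38 to 1.07 and an adjusted p of 0.53 in edgeR. mt-Cytb had 3657, 4661, 6297 and 4059 CPM in CDDO-Me libraries and 5543, 5726, 3187 and 4189 CPM in NASH vehicle libraries, with a log2 fold change of 0.00 ± 0.34 and an interval of -0.73 to 0.73. Over the 13 mRNAs the lower ends of these intervals ran from -0.73 to -0.33 and the upper ends from 0.73 to 1.07, so the missed threshold does not show that the drug left them alone. The spread of the Control libraries enters these intervals too.

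The dietary disease itself was examined by comparing NASH vehicle livers with Control livers. With TMM scaling, 6 of 16 mitochondrial genes were called lower and 0 higher, beside 30% of all genes tested called lower, 29.6% called higher and 59.7% called in either direction, and 10 of the 16 had an unadjusted p below 0.05, near the 63.7% of all genes that had one. The called genes were mt-Rnr1, mt-Co2, mt-Atp8, mt-Atp6, mt-Nd4 and mt-Cytb, so that subunits of all 4 complexes with mitochondrial members and 1 rRNA were among them. The 13 mRNAs had log2 fold changes of -0.93 to -0.53 with a median of -0.76, all below 0 with TMM, 3 of 13 above 0 with library totals (median -0.14, where the median of all genes was 0.62), and 12 of 13 above 0 on the log2(TPM + 1) scale (median 0.21, all genes 0.51). The same scalings moved the share of calls in the higher direction over all genes to 88.2% with library totals and 92.6% with TPM, against 49.6% with TMM. The direction of the mRNAs as a group is therefore a matter of which scaling is used, and in each of the 3 scalings their median lay below that of all genes.

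Among the mRNAs, mt-Atp8 gave the lowest p in this comparison. It had 277, 298, 198 and 226 CPM in NASH vehicle libraries and 788, 370, 315 and 433 CPM in Control libraries. All 4 NASH vehicle libraries were below all 4 Control libraries, which held for this 1 mitochondrial gene of 16 and for 54.4% of all genes tested. The log2 fold change was -0.93 ± 0.26 (SE) with an edgeR adjusted p of 0.0073, and it was -0.31 with library totals (adjusted p 0.27) and 0.02 on the log2(TPM + 1) scale (limma adjusted p 0.97). Since mt-Atp8 shares bases with mt-Atp6, and how reads over both were assigned is not given in the sources used here, the values of the 2 may not be independent.

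mt-Atp6 itself had 4128, 4779, 2738 and 3476 CPM in NASH vehicle libraries and 11286, 5141, 4586 and 7054 CPM in Control libraries. The second NASH vehicle library exceeded the lowest Control library. Its log2 fold change was -0.89 ± 0.28 (adjusted p = 0.013, edgeR) with TMM, -0.27 with library totals and close to 0 on the log2(TPM + 1) scale. mt-Cytb had 5543, 5726, 3187 and 4189 CPM in NASH vehicle libraries and 15699, 5462, 4934 and 8388 CPM in Control libraries, so that the groups overlapped and the first Control library stood far above the rest. Its log2 fold change was -0.89 ± 0.34 with TMM (adjusted p = 0.037, edgeR), -0.27 with library totals and 0.07 on the log2(TPM + 1) scale.

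For complex IV, the log2 fold change of mt-Co2 was -0.80 ± 0.28 with TMM (edgeR adjusted p = 0.025), -0.17 with library totals and 0.09 with TPM. mt-Co3 gave -0.69 ± 0.30 (adjusted p = 0.057) and mt-Co1 -0.55 ± 0.33 (adjusted p = 0.17) with TMM, and both missed the threshold. For complex I, mt-Nd4 had a log2 fold change of -0.82 ± 0.33 (adjusted p = 0.044, edgeR) with TMM, -0.20 with library totals and 0.14 with TPM. The other 6 complex I mRNAs, mt-Nd1, mt-Nd2, mt-Nd3, mt-Nd4l, mt-Nd5 and mt-Nd6, missed the threshold with TMM log2 fold changes between -0.81 and -0.53.

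How many mitochondrial genes passed depended on the Control libraries. Without the first, 2 of 16 were called lower in NASH vehicle livers, mt-Rnr1 and mt-Atp8, and the median of the 13 mRNAs was -0.29. Without the third, 15 were called lower and the median was -0.94. Without the third or the fourth NASH vehicle library, 3 were called lower. The third Control library also stood apart in smooth muscle markers, with a summed 510 CPM where the remaining Control libraries had 17.5 to 23 CPM, and in cholangiocyte (bile duct cell) markers, with 265 CPM against 44.8 to 82.2 CPM. Krt19, a keratin of bile duct cells, had 141 CPM there and 3.14 to 4.29 CPM in the other Control libraries. The part of either marker list in the result was not tested.

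**Figure D3:**
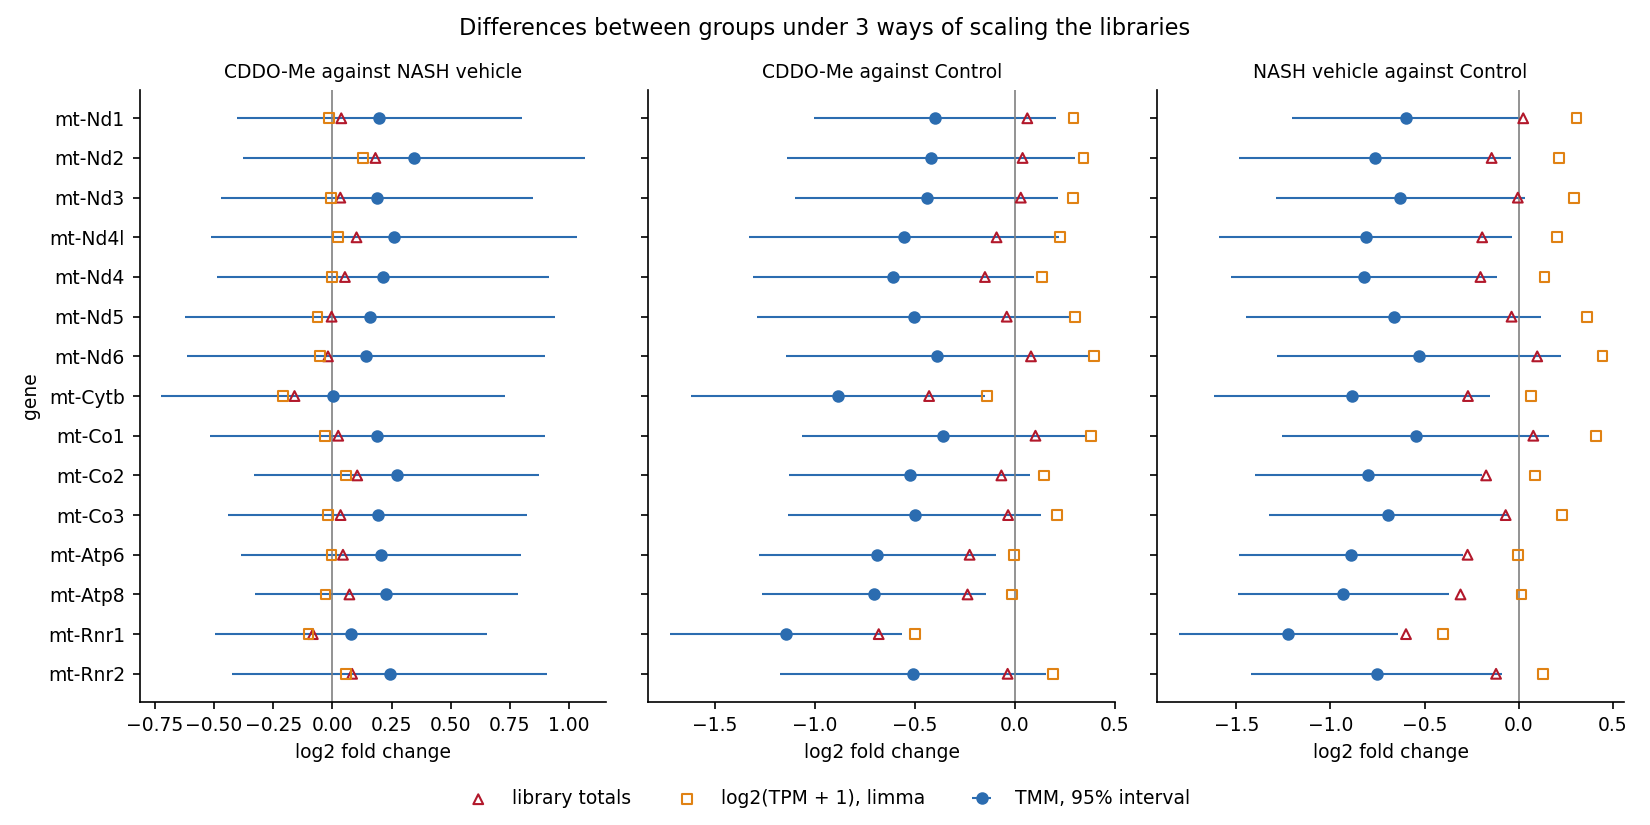
Log2 fold change (x axis) of the 13 mRNAs and 2 rRNAs in the 3 comparisons, with TMM scaling (filled circles, bars are 95% intervals of edgeR's fit), library totals (triangles) and limma on log2(TPM + 1) (squares). Against Control, the mRNA values move towards or past 0 from TMM to TPM, while mt-Rnr1 stays below 0 in all 3. In CDDO-Me against NASH vehicle every TMM interval includes 0.

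CDDO-Me livers set against Control livers, a comparison that shares its libraries with both others, gave 3 of 16 mitochondrial genes lower and 0 higher with TMM, where 23.6% of all genes were called lower, 26.2% higher and 49.8% in either direction, and 4 had an unadjusted p below 0.05, where 55.8% of all genes had one. They were mt-Rnr1, mt-Atp8 and mt-Cytb. mt-Atp8 had 225, 276, 362 and 306 CPM in CDDO-Me libraries and 788, 370, 315 and 433 CPM in Control libraries, which overlap, and a log2 fold change of -0.71 ± 0.26 with TMM (adjusted p = 0.037, edgeR), -0.24 with library totals and -0.01 with TPM. For mt-Cytb the log2 fold change was -0.88 ± 0.34 with TMM (adjusted p = 0.045, edgeR), -0.43 with library totals and -0.14 with TPM. The 13 mRNAs had a median log2 fold change of -0.51 with TMM, -0.04 with library totals and 0.23 with TPM, where all genes had 0.03, 0.51 and 0.37 and the higher direction took 52.7%, 88.5% and 91.6% of all calls. Without the first Control library the TMM median was -0.05 and 1 gene, mt-Rnr1, was called. Without the third it was -0.70 and 7 were called. Without the fourth Control library, or without the first, the second or the fourth CDDO-Me library, 1 was called.

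mt-Rnr1, the RNA backbone of the small mitochondrial ribosomal subunit, was called lower in both groups on the diet than in Control under 19 of 20 alternatives in each comparison, all but log2(TPM + 1), while mt-Atp8, the next in NASH vehicle against Control, was called under 18. It lies at MT positions 70 to 1024 on the + strand, directly upstream of a tRNA and mt-Rnr2. It had 434, 541, 709 and 479 CPM in CDDO-Me libraries, 521, 765, 350 and 411 CPM in NASH vehicle libraries, and 1598, 1290, 743 and 1155 CPM in Control libraries. All CDDO-Me libraries were below all Control libraries, which held for 1 of 16 mitochondrial genes and for 43.7% of all genes, while the second NASH vehicle library exceeded the third Control library. The log2 fold change was -1.15 ± 0.27 in CDDO-Me against Control (adjusted p = 0.0033, edgeR) and -1.23 ± 0.27 in NASH vehicle against Control (adjusted p = 0.0016). With library totals it was -0.68 and -0.60 (adjusted p = 0.022 and 0.035, edgeR), and on the log2(TPM + 1) scale it was -0.50 and -0.40 (limma adjusted p = 0.064 and 0.11), below 0 but short of the threshold. Leaving out any 1 library kept the TMM value between -1.32 and -0.98 for CDDO-Me and between -1.49 and -1.06 for NASH vehicle. CDDO-Me against NASH vehicle gave 0.08 ± 0.27, with a 95% interval of -0.49 to 0.65.

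mt-Rnr2, the RNA of the large subunit and the next gene downstream, was called lower than in Control in fewer of the fits. It had 724, 846, 1217 and 940 CPM in CDDO-Me libraries, 738, 1168, 565 and 680 CPM in NASH vehicle libraries, and 2050, 1410, 671 and 1181 CPM in Control libraries, and all 3 groups overlapped. Its log2 fold changes were -0.51 ± 0.31 in CDDO-Me against Control (adjusted p = 0.19) and -0.75 ± 0.31 in NASH vehicle against Control (adjusted p = 0.0503), which missed the threshold in edgeR, although DESeq2 called the second (adjusted p = 0.026). Of 20 alternatives, 1 called it in CDDO-Me against Control and 3 in NASH vehicle against Control, and the difference between both rRNAs was not tested. On the log2(TPM + 1) scale both were above 0, at 0.19 and 0.13.

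Both rRNAs can be set against each other within a library, where the scaling cancels. There were 0.599, 0.639, 0.583 and 0.510 mt-Rnr1 reads per mt-Rnr2 read in CDDO-Me libraries, 0.707, 0.654, 0.619 and 0.605 in NASH vehicle libraries, and 0.780, 0.915, 1.11 and 0.977 in Control libraries. All 8 libraries of mice with NASH were below all 4 Control libraries, the first Control library included. The ratio was chosen after its values were seen and was given no test. Relative to the reads of the 13 mRNAs, mt-Rnr1 made up 1.05% ± 0.03 in CDDO-Me livers, 1.12% ± 0.17 in NASH vehicle livers and 1.78% ± 0.52 in Control livers, and mt-Rnr2 made up 1.82% ± 0.15, 1.74% ± 0.25 and 1.89% ± 0.55 (SD, n = 4 each). With oligo dT selection these are levels of the rRNA that was captured and not of all rRNA. How far each mRNA was tailed was not examined, so mRNA levels are likewise those of captured RNA.

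The make-up of the mRNA pool, the reads of each mRNA as a share of the reads of all 13, does not depend on how libraries are scaled to each other either. mt-Co1 took 35.3%, 33.8%, 34.4% and 32.5% of the pool in CDDO-Me libraries, 33.5%, 34.0%, 34.1% and 35.0% in NASH vehicle libraries, and 31.6%, 31.4%, 28.7% and 29.4% in Control libraries. Every library of the 2 groups on the diet was above every Control library. mt-Atp6 took 8.50%, 8.62%, 8.18% and 8.72% in CDDO-Me libraries, 8.50%, 8.48%, 8.57% and 8.08% in NASH vehicle libraries, and 8.74%, 9.88%, 10.7% and 10.2% in Control libraries. It lay the other way round, and the first Control library was close to the diet groups. Both mRNAs are named for their lack of overlap with Control. With libraries scaled to the pool, 18.5% of all genes were free of overlap in CDDO-Me and 28.4% in NASH vehicle against Control, which is not a like measure.

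mt-Cytb and mt-Nd2 were the mRNAs whose shares did not overlap between CDDO-Me and NASH vehicle libraries. They are named for that lack of overlap, and their shares were given no test of their own. With libraries scaled to the pool, 8.25% of all genes were free of overlap, which is not a like measure. mt-Cytb took 8.79%, 9.44%, 9.20% and 8.78% of the pool in CDDO-Me libraries, 11.4%, 10.2%, 9.98% and 9.73% in NASH vehicle libraries, and 12.2%, 10.5%, 11.5% and 12.1% in Control libraries. The CDDO-Me libraries were below all 8 others, while NASH vehicle and Control overlapped. mt-Nd2 took 7.32%, 7.06%, 7.27% and 7.31% in CDDO-Me libraries, 6.38%, 6.55%, 6.65% and 6.52% in NASH vehicle libraries, and 7.07%, 5.27%, 7.17% and 7.18% in Control libraries. CDDO-Me was above NASH vehicle in every library, and the second Control library was the lowest of the 12.

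By complex, complex IV held 50.9% ± 1.0 of the pool in CDDO-Me livers, 50.4% ± 0.9 in NASH vehicle livers and 47.7% ± 2.3 in Control livers. Complex I, with 7 mRNAs, held 31.0% ± 0.9, 30.3% ± 0.2 and 30.2% ± 1.5, and complex V, with mt-Atp6 and mt-Atp8, held 9.08% ± 0.28, 8.97% ± 0.25 and 10.6% ± 0.9 in the same order of groups (SD, n = 4 each).

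A fit within the pool could not resolve shifts of this size. With the summed reads of the 13 mRNAs as library size, edgeR called 0 of 16 mitochondrial genes in each of the 3 comparisons, where it called 2.44% of all genes in CDDO-Me against NASH vehicle, 24.1% in CDDO-Me against Control and 32.5% in NASH vehicle against Control. Unadjusted p was below 0.05 for 0, 1 and 0 of the 16, where 11.4%, 32% and 40.1% of all genes had one. That fit took nearly all of its spread from the other genes, with SEs of 0.37 to 0.38 (log2) for the mRNAs and rRNAs, whereas mt-Nd2 took 7.24% ± 0.12 of the pool in CDDO-Me livers and 6.53% ± 0.11 in NASH vehicle livers (SD, n = 4 each). Its missed threshold therefore says nothing on whether the shares differ. The 4 libraries of one group were clear of the 4 of the other for 2 genes in CDDO-Me against NASH vehicle (mt-Nd2 and mt-Cytb, 8.25% of all genes), for 4 in CDDO-Me against Control (mt-Rnr1, mt-Atp6, mt-Cytb and mt-Co1, 18.5% of all genes), and for 2 in NASH vehicle against Control (mt-Co1 and mt-Atp6, 28.4% of all genes). The percentages of all genes in this fit are not a like measure for the mitochondrial genes. The pool's own spread between libraries enters the values of nuclear genes but cancels in the shares of its members. With TMM scaling, 21.6%, 43.7% and 54.4% of all genes were free of overlap in the same 3 comparisons. The fitted log2 fold changes within the pool were -0.19 for mt-Cytb and 0.15 for mt-Nd2 in CDDO-Me against NASH vehicle. In NASH vehicle against Control mt-Co1 had 0.17 and mt-Rnr1 had -0.67. Without the first Control library, mt-Rnr1 was called lower relative to the pool in both comparisons with Control, again with a spread taken mostly from other genes, at -0.90 in CDDO-Me (adjusted p = 0.0040) and -0.81 in NASH vehicle (adjusted p = 0.0081).

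**Figure D4:**
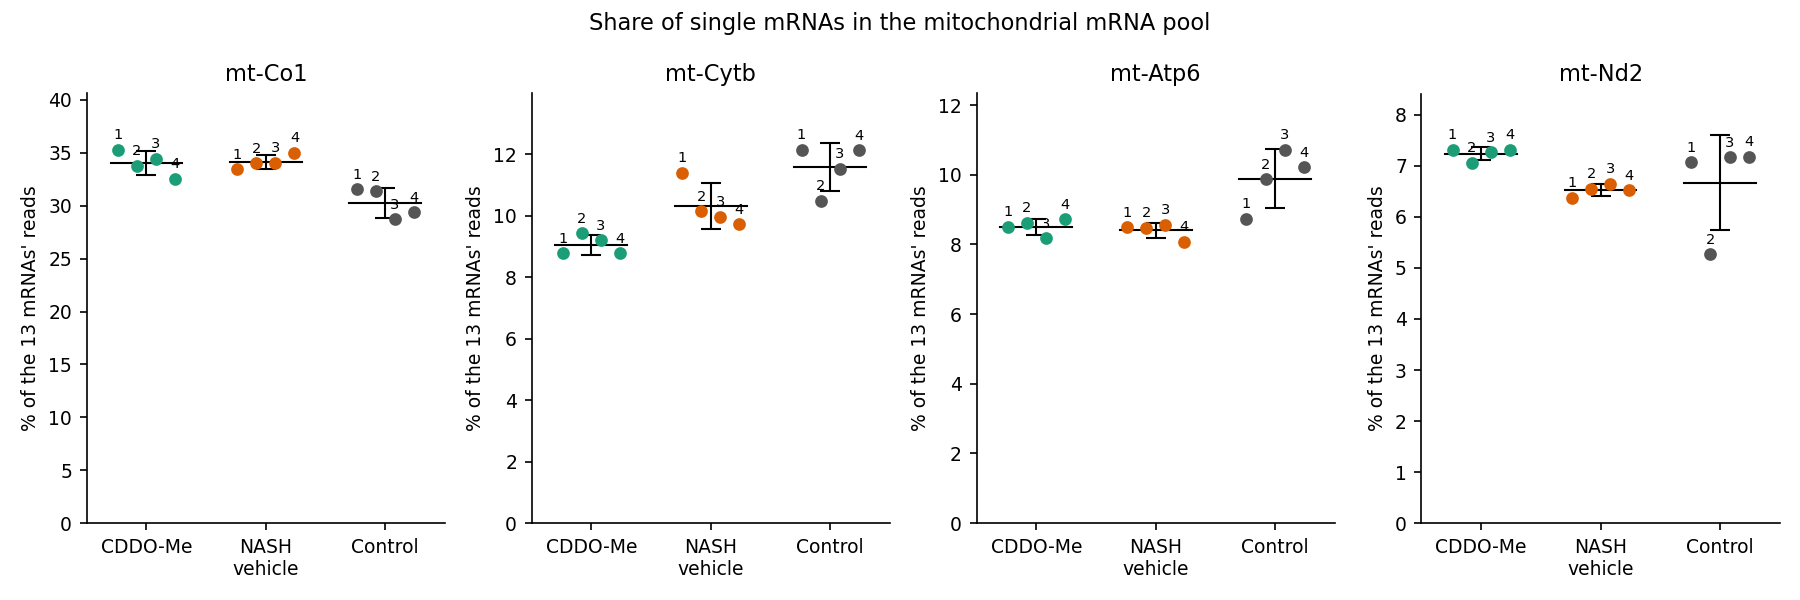
Reads of mt-Co1, mt-Cytb, mt-Atp6 and mt-Nd2 as a percentage of the reads of the 13 mitochondrial mRNAs, by library and group. Points are libraries numbered by replicate, with the mean and SD of 4 as lines. mt-Co1 is at least 32.5% in both groups on the diet and at most 31.6% in Control, and mt-Cytb is at most 9.44% in CDDO-Me and at least 9.73% elsewhere.

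The 22 tRNAs were nearly absent from these poly(A) libraries. Over all 12 libraries they had 362 reads, 0.00173% of the reads on mitochondrial genes, with 14 to 53 per library. In all, 6 had 0 reads in every library, which over the 12 libraries allows up to 3 reads each, and 2 reached 10 reads in any library. The most counted was mt-Te, the tRNA for glutamate, which lies on the - strand between mt-Nd6 and mt-Cytb at MT positions 14071 to 14139 and was the 1 tRNA with enough reads to be tested. It had 9, 11, 10 and 3 reads in CDDO-Me libraries, 11, 12, 6 and 9 in NASH vehicle libraries, and 21, 9, 3 and 17 in Control libraries. Its log2 fold changes were 0.03 ± 0.61, -0.97 ± 0.60 and -0.996 ± 0.592 in CDDO-Me against NASH vehicle, CDDO-Me against Control and NASH vehicle against Control, and none passed (edgeR adjusted p of 0.16 or more). The 95% interval of the first ran from -1.28 to 1.34, and reads that run over from the neighbouring mRNAs could not be told apart from tRNA.

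The nuclear partners of these genes were set beside the mitochondrial mRNAs. Of 74 nuclear genes for subunits of complexes I to V, 27 were called higher and 0 lower in CDDO-Me against NASH vehicle with TMM, where 9.39% of all genes were called higher and 7.24% lower, and their median log2 fold change was 0.41. The counts were 25 and 0 with library totals (median 0.24; all genes 5.63% higher and 9.66% lower) and 12 and 0 with TPM (median 0.18; all genes 4.89% higher and 15% lower). The 13 mitochondrial mRNAs had 0 calls in each of these, and the difference between both sets of genes was not tested. The nuclear count was 6 without the second or the third CDDO-Me library and without the third or the fourth NASH vehicle library, 11 without the second NASH vehicle library and 60 without the fourth CDDO-Me library, with medians of 0.33 to 0.52. In NASH vehicle against Control, 74 of 74 nuclear subunits were called lower with TMM (median -0.93), beside 30% of all genes. Library totals gave 50 lower and 2 higher (median -0.30), where 8.06% of all genes were lower and 60.2% higher, and TPM gave 22 lower and 3 higher (median -0.11), where 5.36% were lower and 66.9% higher. In CDDO-Me against Control, 66 were lower and 0 higher with TMM (median -0.53), beside 23.6% and 26.2% of all genes. They were 11 lower and 3 higher with library totals (median -0.08), where 6.84% of all genes were lower and 52.7% higher, and 2 lower and 7 higher with TPM (median 0.06), where 4.98% were lower and 54.3% higher.

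Representative subunits show the sizes. Ndufs1, the large iron-sulphur subunit of complex I, averaged 122 ± 22 CPM in CDDO-Me livers and 82.4 ± 13.2 in NASH vehicle livers (SD, n = 4 each), and its log2 fold change was 0.56 ± 0.15 (adjusted p = 0.018, edgeR). Sdha, the flavoprotein of complex II, which has no mitochondrially encoded subunit, averaged 502 ± 83 and 348 ± 53 CPM in the same groups, a log2 fold change of 0.53 ± 0.15 (adjusted p = 0.026). Uqcrc2, a core protein of complex III, had 0.49 ± 0.13 (adjusted p = 0.018). With library totals Ndufs1, Sdha and Uqcrc2 kept their calls at 0.40, 0.36 and 0.32 (edgeR adjusted p = 0.023, 0.029 and 0.029), and on the log2(TPM + 1) scale all 3 missed the threshold at 0.34, 0.31 and 0.26 (limma adjusted p = 0.060, 0.066 and 0.067). Cox4i1 of complex IV and Atp5a1 of ATP synthase had 0.37 ± 0.18 and 0.42 ± 0.15 and missed the threshold (edgeR adjusted p = 0.17 and 0.079). As a sum of TPM, the 13 mitochondrial mRNAs exceeded the nuclear subunits 6.09-, 5.57-, 7.51- and 8.19-fold in CDDO-Me libraries, 7.79-, 9.48-, 6.47- and 7.44-fold in NASH vehicle libraries, and 12.7-, 4.34-, 4.28- and 6.45-fold in Control libraries. The 3 groups overlapped in this ratio.

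**Figure D5:**
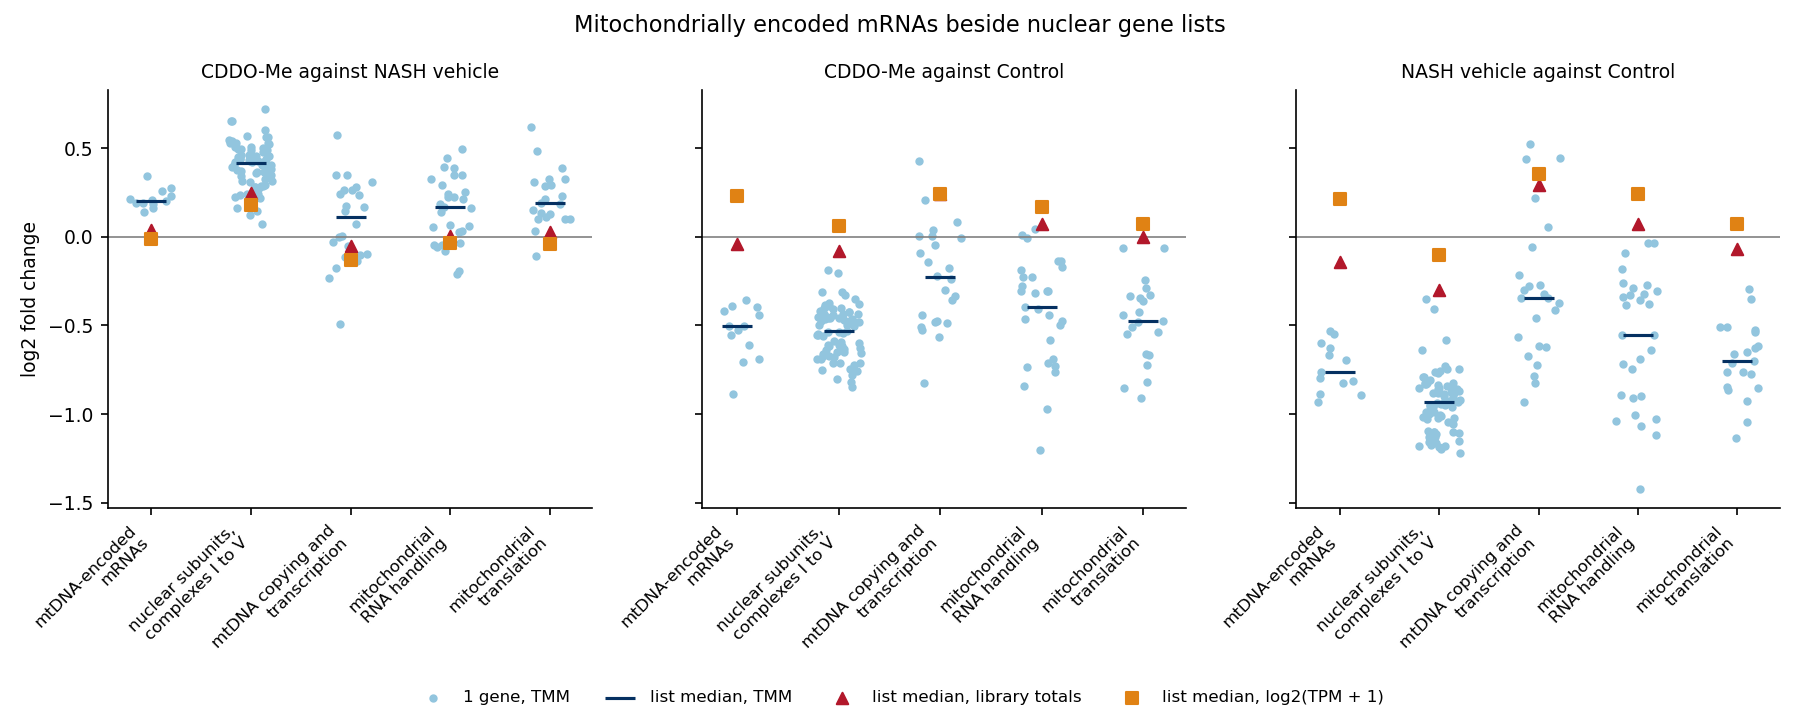
Log2 fold change (y axis) of single genes with TMM scaling (points) and list medians with TMM (dash), library totals (triangle) and log2(TPM + 1) (square) for the mitochondrial mRNAs and 4 lists of nuclear genes. In CDDO-Me against NASH vehicle the nuclear subunits have a median of 0.41 and the mitochondrial mRNAs of 0.20 with TMM. Against Control the medians depend on the scaling in every list.

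Genes that copy and transcribe mitochondrial DNA were called in a direction that turned with the scaling against Control. Of 24, 3 were higher and 0 lower in CDDO-Me against NASH vehicle with TMM, which is near the 9.39% of all genes called higher. The counts were 1 and 0 with library totals (5.63% and 9.66% of all genes) and 1 and 2 with TPM (4.89% and 15%). In NASH vehicle against Control 1 was higher and 16 lower with TMM, but 9 higher and 1 lower with library totals and 15 higher and 0 lower with TPM, and in CDDO-Me against Control 1 was higher and 11 lower with TMM, 8 and 1 with library totals and 9 and 0 with TPM. Among all genes the lower share was 30% and 23.6% in these comparisons with TMM, and the higher share was 60.2% and 52.7% with library totals and 66.9% and 54.3% with TPM. Tfb2m, the factor that opens mitochondrial promoters, had 26.7, 28.9, 31.0 and 27.3 CPM in CDDO-Me libraries, 21.7, 18.8, 17.9 and 18.3 CPM in NASH vehicle libraries, and 32.7, 34.4, 37.7 and 41.3 CPM in Control libraries. With TMM the 3 groups did not overlap. Taken in pairs, 21.6% (CDDO-Me against NASH vehicle), 43.7% (CDDO-Me against Control) and 54.4% (NASH vehicle against Control) of all genes were free of overlap. Tfb2m rose in CDDO-Me against NASH vehicle by 0.57 ± 0.09 on the log2 scale (adjusted p = 0.0013, edgeR), by 0.41 with library totals and by 0.38 with TPM, past the threshold in all 3. In NASH vehicle against Control it fell by 0.93 ± 0.09 with TMM (edgeR adjusted p = 2.7e-06) and by 0.31 with library totals (adjusted p = 0.014). With TPM its -0.15 missed the threshold. In CDDO-Me against Control the direction of Tfb2m turned with the scaling. It had -0.36 with TMM (edgeR adjusted p = 0.0061), 0.10 with library totals (adjusted p = 0.37) and 0.23 with TPM (limma adjusted p = 0.071).

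The other named genes of this list missed the threshold in CDDO-Me against NASH vehicle. Tfam, which packages mitochondrial DNA and starts its transcription, averaged 38.0 ± 6.7 CPM in CDDO-Me livers, 31.7 ± 3.0 in NASH vehicle livers and 54.6 ± 4.8 in Control livers. Its log2 fold change was 0.26 ± 0.12 in CDDO-Me against NASH vehicle (adjusted p = 0.16, edgeR), and in NASH vehicle against Control it was -0.79 ± 0.12 with TMM (adjusted p = 9.1e-05), -0.16 with library totals and 0.02 with TPM. Polrmt, the RNA polymerase, had -0.10 ± 0.09 in CDDO-Me against NASH vehicle (adjusted p = 0.46) and in NASH vehicle against Control -0.46 ± 0.09 with TMM, 0.17 with library totals and 0.33 with TPM. Among genes of replication, Polg (the DNA polymerase), Twnk (the helicase) and Ssbp1 (the single-strand binding protein) had 0.07 ± 0.08, 0.24 ± 0.13 and 0.28 ± 0.10 in CDDO-Me against NASH vehicle, and none passed (edgeR adjusted p = 0.60, 0.24 and 0.077).

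Genes that cut, tail, stabilise or degrade mitochondrial RNA were examined next. Of 29, 4 were higher and 0 lower in CDDO-Me against NASH vehicle with TMM, which is near the 9.39% of all genes called higher. The counts were 1 and 0 with library totals (5.63% and 9.66% of all genes) and 1 and 1 with TPM (4.89% and 15%). In NASH vehicle against Control 0 were higher and 22 lower with TMM (29.6% and 30% of all genes). With library totals 10 were higher and 8 lower (60.2% and 8.06% of all genes), and with TPM 14 and 4 (66.9% and 5.36%). In CDDO-Me against Control 0 were higher and 18 lower with TMM (26.2% and 23.6% of all genes). There library totals gave 4 and 4 (52.7% and 6.84% of all genes), and TPM gave 11 and 2 (54.3% and 4.98%). Grsf1, an RNA-binding protein of the mitochondrial RNA granules, averaged 89.7 ± 9.2 CPM in CDDO-Me livers and 65.9 ± 5.8 in NASH vehicle livers and rose by 0.45 ± 0.09 on the log2 scale with TMM (adjusted p = 0.0059, edgeR), 0.28 with library totals (adjusted p = 0.0081) and 0.21 with TPM (limma adjusted p = 0.036). Lrpprc, which with Slirp protects the mRNAs from decay, averaged 75.5 ± 11.8 CPM in NASH vehicle livers and 158 ± 15 in Control livers, and fell with each scaling, by 1.07 ± 0.12 with TMM (adjusted p = 6.3e-06, edgeR), by 0.44 with library totals and by 0.26 with TPM (limma adjusted p = 0.047). In CDDO-Me against NASH vehicle Lrpprc had 0.23 ± 0.12 (adjusted p = 0.22). Slirp, Tbrg4 (a factor of mRNA stability), Mtpap (the poly(A) polymerase), Pnpt1 (an exoribonuclease) and Elac2 (which cuts at the 3′ ends of tRNAs) had -0.04 to 0.33 in CDDO-Me against NASH vehicle, and none passed (edgeR adjusted p of 0.07 or more). In NASH vehicle against Control, Slirp and Mtpap turned with the scaling. Slirp had -0.33 with TMM, 0.29 with library totals (edgeR adjusted p = 0.035 and 0.049) and 0.47 with TPM (limma adjusted p = 0.0029). Mtpap had -0.27, 0.35 (edgeR adjusted p = 0.038 and 0.026) and 0.37 (limma adjusted p = 0.025). Tbrg4, Pnpt1 and Elac2 were called lower there with TMM but missed the threshold with library totals and TPM.

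Of 21 mitochondrial translation factors, 3 were higher and 0 lower in CDDO-Me against NASH vehicle with TMM (1 and 0 with library totals and with TPM), 0 were higher and 21 lower in NASH vehicle against Control (2 and 3 with library totals, 2 and 1 with TPM), and 0 were higher and 16 lower in CDDO-Me against Control (3 and 2, and 3 and 0). With TMM, all genes were called higher and lower in 9.39% and 7.24%, 29.6% and 30%, and 26.2% and 23.6% of cases in these comparisons, so that 3 of 21 is near the background. Tufm, which brings tRNAs to the mitochondrial ribosome, had 0.33 ± 0.12 in CDDO-Me against NASH vehicle and missed the threshold (adjusted p = 0.087, edgeR). Of 15 regulators of mitochondrial biogenesis, 3 were higher and 0 lower in CDDO-Me against NASH vehicle with TMM (2 and 0 with library totals, 1 and 0 with TPM), 0 were higher and 7 lower in NASH vehicle against Control (8 and 2, and 8 and 1), and 2 were higher and 4 lower in CDDO-Me against Control (8 and 0 with either). The TMM shares of all genes given above stand beside the TMM counts. With library totals, all genes were called higher and lower in 5.63% and 9.66%, 60.2% and 8.06%, and 52.7% and 6.84% of cases in these comparisons. With TPM the shares were 4.89% and 15%, 66.9% and 5.36%, and 54.3% and 4.98%. They stand beside the counts of the translation factors as well.

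Ppargc1a, the coactivator PGC-1α that drives biogenesis, had 13.5, 11.5, 17.9 and 12.6 CPM in CDDO-Me libraries, 10.8, 8.35, 8.67 and 7.85 CPM in NASH vehicle libraries, and 7.30, 8.39, 6.18 and 8.00 CPM in Control libraries. All 4 CDDO-Me libraries were above the 8 others with TMM. Of all genes, 21.6% were free of overlap in CDDO-Me against NASH vehicle and 43.7% in CDDO-Me against Control. The log2 fold change of Ppargc1a was 0.64 ± 0.16 in CDDO-Me against NASH vehicle (adjusted p = 0.015, edgeR) and 0.48 with library totals (adjusted p = 0.045). With TPM it was 0.32 and missed the threshold (limma adjusted p = 0.075). In CDDO-Me against Control it was 0.89 ± 0.16 (edgeR adjusted p = 0.00047), 1.36 with library totals and 1.08 with TPM, past the threshold in each. In NASH vehicle against Control it was 0.25 with TMM and missed the threshold (edgeR adjusted p = 0.19). There it was called higher with library totals (0.88, edgeR adjusted p = 0.00019) and with TPM (0.76, limma adjusted p = 0.00016). The same scalings called 60.2% and 66.9% of all genes higher in that comparison. Nrf1, Gabpa and Esrra, transcription factors for nuclear genes of mitochondria, had -0.20 ± 0.12, 0.06 ± 0.07 and 0.22 ± 0.13 in CDDO-Me against NASH vehicle, and none passed (edgeR adjusted p = 0.31, 0.62 and 0.29).

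RNA of cell type markers differed with the diet. The 10 hepatocyte markers, which include Alb, summed to 35730 to 54773 CPM in CDDO-Me libraries, 35359 to 58550 in NASH vehicle libraries and 94948 to 113590 in Control libraries, and 10 of 10 were called lower in both groups on the diet than in Control with TMM. Alb, the albumin gene, averaged 30116 ± 6111 CPM in CDDO-Me livers, 27730 ± 6919 in NASH vehicle livers and 59982 ± 5350 in Control livers (SD, n = 4 each). The 10 macrophage markers, which include Adgre1, summed to 988 to 1840 CPM in CDDO-Me libraries, 1850 to 3547 in NASH vehicle libraries and 134 to 224 in Control libraries, with 10 of 10 called higher in either diet group than in Control and 8 of 10 called lower in CDDO-Me than in NASH vehicle. The 6 cholangiocyte markers summed to 381 to 864 CPM in CDDO-Me libraries, 449.7 to 1096 in NASH vehicle libraries and 44.8 to 265 in Control libraries, and 3 were called higher in CDDO-Me and 4 in NASH vehicle than in Control. In the diet groups most of that sum was Spp1. It had 329 to 757 CPM in CDDO-Me, 382 to 949 in NASH vehicle and 26.8 to 64.8 in Control libraries. Within the list, log2 fold changes against Control ran from -1.76 to 5.17 in CDDO-Me and from -1.46 to 5.34 in NASH vehicle. Without the third Control library, 6 were called higher in each. Of 6 smooth muscle markers tested edgeR called 0 in any comparison (unadjusted p below 0.05 for 1, in NASH vehicle against Control, where limma on TPM called 1 higher), and of 5 red blood cell markers 1 was called lower in each diet group than in Control. Beside the TMM counts of these markers, 29.6% of all genes were called higher and 30% lower in NASH vehicle against Control. The shares were 26.2% and 23.6% in CDDO-Me against Control, and 9.39% and 7.24% in CDDO-Me against NASH vehicle. Against Control these shares moved with the scaling, as given above. In these bulk samples, fewer cells of a type and less RNA per cell cannot be told apart, and the part of these markers in the mitochondrial results was not tested. Reads not contained in exons made up 4.52% to 6.44% of the reads on nuclear genes in CDDO-Me libraries, 4.47% to 6.69% in NASH vehicle libraries and 3.02% to 4.13% in Control libraries, and their part was not tested either. TMM factors, by which the library totals were scaled, were 0.974 to 1.20 in CDDO-Me, 1.11 to 1.31 in NASH vehicle and 0.732 to 0.83 in Control libraries, so that TMM and library totals differ most against Control.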

How the data were processed

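Each library has 1 deposited table with whole read counts per gene and, computed by the authors, TPM. Per the file headers, total gene reads are the exon reads plus those not contained in exons. The genome build is GRCm38 per the submitters' processing notes, and no aligner, counting tool or strand setting was given in the sources used here, nor whether a pair counts as 1 or 2 reads. Total gene reads as deposited were fitted in edgeR 4.0.16 (R 4.3.3) over all 12 libraries with 1 mean per group, after filterByExpr by group (minimum count 10, minimum total 15), which kept 16456 of 41325 genes. Libraries were scaled by TMM, the quasi-likelihood test was robust and two-sided, and p-values were adjusted over all genes tested by Benjamini-Hochberg, with 0.05 as threshold. The SE of a log2 fold change is its size divided by the square root of the F statistic, and intervals (95%) rest on it. A second fit took the summed reads of the 13 mitochondrial mRNAs as library size. CPM are TMM-scaled and errors of levels are SD.

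Alternatives were DESeq2 size factors, library totals, DESeq2 1.42.0, limma-trend (limma 3.58.1) on log2 of the deposited TPM plus 1, no filter, unique gene reads, a replicate block, total exon reads and leaving out each library. On the log2(TPM + 1) scale fold changes of low genes are understated. The fit was tested on simulated counts. The members, gene lists and tests were chosen with earlier results of these data known. All mRNAs and rRNAs, the tested tRNA and a fixed set of nuclear partners were named. Sequences were read from the GENCODE M21 transcripts, whose mitochondrial coordinates are those of the deposited tables, and the counts allowed by 0 reads cover counting error only.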

Additional observations from a re-analysis of the deposited data

Results flagged for a closer look

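Of 102 groups of 4 libraries examined, 5 held 1 library far from the other 3, and chance alone gives this in about 1 in 20 groups. In the second Control library, mt-Nd2 took 5.27%, mt-Nd3 0.853% and mt-Nd4 8.56% of the mitochondrial mRNA pool, apart from the other Control libraries. In the fourth CDDO-Me library mt-Co3 took 7.88% of the pool. In the third CDDO-Me library 27.9% of the reads of mt-Nd6 lay partly outside the gene.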

How the results depend on the processing

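Among the mitochondrial genes, the calls that moved were those against Control. Against 6 mitochondrial genes lower in NASH vehicle than in Control with TMM, library totals gave 1 and limma-trend on log2(TPM + 1) gave 0; against 3 lower in CDDO-Me than in Control, library totals, no filter, the replicate block and total exon reads (an alternative added after seeing the data) gave 1 each, and TPM gave 0. Fewer libraries gave 2 to 15 for NASH vehicle and 1 to 7 for CDDO-Me. Relative to the mRNA pool, 0 to 1 gene was called in each comparison with Control when 1 library was left out. No mitochondrial gene was called in CDDO-Me against NASH vehicle under the alternatives run, 20 for each gene but mt-Te, which had 19 since it did not pass the filter with total exon reads. The nuclear subunits called higher there were 27 with TMM, 12 with TPM and 6 to 60 when 1 library was left out. The cause of these differences was not tested.

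Directions turned as follows, as log2 fold changes. In CDDO-Me against NASH vehicle, library totals gave -0.083 for mt-Rnr1, -0.0036 for mt-Nd5, -0.019 for mt-Nd6, -0.14 for mt-Te and -0.16 for mt-Cytb. DESeq2 size factors gave -3.1e-05 for mt-Te and -0.028 for mt-Cytb, DESeq2 -0.028 for mt-Cytb, and no filter -0.0038 for mt-Cytb. TPM gave -0.10 for mt-Rnr1, -0.015 for mt-Nd1, -0.030 for mt-Co1, -0.029 for mt-Atp8, -0.0039 for mt-Atp6, -0.020 for mt-Co3, -0.0067 for mt-Nd3, -0.0013 for mt-Nd4, -0.063 for mt-Nd5, -0.053 for mt-Nd6 and -0.21 for mt-Cytb. In CDDO-Me against Control, library totals gave 0.062 for mt-Nd1, 0.038 for mt-Nd2, 0.10 for mt-Co1, 0.029 for mt-Nd3 and 0.080 for mt-Nd6. TPM gave 0.19 for mt-Rnr2, 0.29 for mt-Nd1, 0.34 for mt-Nd2, 0.38 for mt-Co1, 0.15 for mt-Co2, 0.21 for mt-Co3, 0.29 for mt-Nd3, 0.23 for mt-Nd4l, 0.14 for mt-Nd4, 0.30 for mt-Nd5, 0.39 for mt-Nd6 and 0.16 for mt-Te. In NASH vehicle against Control, library totals gave 0.025 for mt-Nd1, 0.078 for mt-Co1 and 0.10 for mt-Nd6. TPM gave 0.13 for mt-Rnr2, 0.31 for mt-Nd1, 0.21 for mt-Nd2, 0.41 for mt-Co1, 0.088 for mt-Co2, 0.016 for mt-Atp8, 0.23 for mt-Co3, 0.30 for mt-Nd3, 0.20 for mt-Nd4l, 0.14 for mt-Nd4, 0.36 for mt-Nd5, 0.45 for mt-Nd6 and 0.068 for mt-Cytb.

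Leaving out 1 library gave ranges across 0 in CDDO-Me against Control of -0.62 to 0.051 for mt-Nd2, -0.56 to 0.10 for mt-Co1, -0.74 to 0.051 for mt-Nd5 and -0.63 to 0.060 for mt-Nd6. In CDDO-Me against NASH vehicle they were -0.078 to 0.34 for mt-Rnr1, -0.19 to 0.33 for mt-Te, -0.18 to 0.12 for mt-Cytb, -0.0049 to 0.28 for mt-Nd5 and -0.020 to 0.30 for mt-Nd6. Within the pool they were -0.16 to 0.016 for mt-Rnr1, -0.023 to 0.016 for mt-Co1 and -0.0011 to 0.036 for mt-Atp6 in that comparison, and -0.13 to 0.0053 for mt-Nd2 in NASH vehicle against Control.

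No pairing of the samples by replicate number was seen. Deviations from the group means of libraries with the same number correlated at -0.22 to 0.19, above 0.1 in 2 of 12 pairs, and for 0 of 12 libraries was the best match a library of the same number. With the replicate block, 3 of the 13 mRNAs were called lower in NASH vehicle than in Control and 0 in CDDO-Me than in Control, beside 5 and 2 without it. Depth limits the tRNAs, with 14 to 53 reads per library.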
